A study of Mus musculus with 8 samples.

Results

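The 10 genes described here encode enzymes of de novo purine synthesis in aged mouse muscle stem cells (MuSCs), of 55487 genes counted. Ppat, Gart, Pfas, Paics, Adsl and Atic build inosine monophosphate (IMP), Impdh1, Impdh2 and Gmps turn IMP into GMP, and Adss starts the branch from IMP to AMP. They were chosen by name as the enzymes of the route, after their rise in this same comparison had been seen, so their fold changes, intervals and counts past a threshold are given as a description and not as evidence about them. All 10 were among the 12060 genes with enough counts to be tested.

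MuSCs were sorted from muscle of old male C57BL/6JRj mice as cells negative for CD31, CD11b, CD45 and Sca1 and positive for CD34 and Integrin α7. They were cultured in growth medium for 72 h with nicotinamide and pyridoxine (NAM/PN, 1 mM) or with the 1% DMSO vehicle. Time, dose and vehicle are those of the sample records. The paper's methods for proliferation assays of sorted MuSCs give a longer culture and a lower DMSO percentage. Cells of 8 mice were joined into 4 pools of 2 mice, and each pool was grown under both conditions, which gave 4 vehicle and 4 NAM/PN libraries. All libraries thus came from aged cells in culture, and a replicate was a pool, not a single animal.

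Purine nucleotides are assembled on a ribose phosphate, with nitrogen from glutamine, glycine and aspartate and single carbons carried by folate. The route ends in IMP, which feeds the GMP and AMP branches, and it runs beside a salvage route that recycles free bases. Dividing cells draw on it for DNA and RNA, and muscle fibres use the AMP branch in the purine nucleotide cycle during exercise.

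Library totals were between 6472484 and 10163101 counts, and the detection floor of 3 counts corresponded to 0.295 to 0.464 CPM (counts scaled to a common library size) of the library total. Floors cover counting error only, whereas the intervals of fold changes below include the spread between libraries. CPM values below are relative to TMM-normalized library sizes, and since the kit reads the 3′ ends of transcripts they were not divided by length and serve to compare libraries, not genes. The MuSC and myoblast markers summed to 3167 to 3618 CPM under vehicle and 2565 to 3173 CPM under NAM/PN. Of the markers of other cell types, Emcn, Cldn5 and Flt1 (endothelial), Pdgfra, Lum and Dpt (fibro-adipogenic), Myh11 (mural), S100b (glial) and 8 of 9 immune markers had 0 counts. Col1a1, a collagen gene, stood apart in 2 NAM/PN libraries, at 486.1 CPM in pool 1 and 1032 CPM in pool 2, against at most 41.2 CPM in each other library. The gene with the most counts, CT010467.1, took from 5.22% (NAM/PN pool 4) to 18.7% (vehicle pool 3) of a library. In the enzyme sums given below, the former library was the highest and the latter the lowest.

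On GRCm38, Ppat (ENSMUSG00000029246, chr5:76913249-76951578, minus strand) and Paics (chr5:76951307-76967509, plus strand) are neighbours whose 5′ ends overlap by 272 bases on opposite strands. The other enzymes lie apart, Gart at chr16:91621186-91646952, Pfas at chr11:68985697-69008460, Adsl at chr15:80948490-80970946, Atic at chr1:71557150-71579631, Impdh1 at chr6:29200434-29216364, Impdh2 at chr9:108560286-108565584, Gmps at chr3:63976106-64022579 and Adss at chr1:177762962-177796511. Promoter windows of 250 bases before and 50 after a start (RefSeq, GRCm38.p6) were matched for 9 of the 10 genes. The E-box CACGTG, the palindrome that MYC family proteins and other bHLH factors bind, was found in 3 of these 9 genes (Paics, Atic and Impdh2), against 7.15% of all 32851 windows. The GC box GGGCGG was found on either strand in all 9, against 35.7% of windows, and CCAAT on either strand in 4 (Gart, Paics, Atic and Impdh2), against 37.4%. The 3 windows with the E-box are shown because Myc and Mycl are among the factors measured below. They run 5′ to 3′ on the strand of the gene, with the E-box in capitals, for Paics at chr5:76951052-76951351 (plus strand), Atic at chr1:71556906-71557205 (plus strand) and Impdh2 at chr9:108560186-108560485 (plus strand).
Paics: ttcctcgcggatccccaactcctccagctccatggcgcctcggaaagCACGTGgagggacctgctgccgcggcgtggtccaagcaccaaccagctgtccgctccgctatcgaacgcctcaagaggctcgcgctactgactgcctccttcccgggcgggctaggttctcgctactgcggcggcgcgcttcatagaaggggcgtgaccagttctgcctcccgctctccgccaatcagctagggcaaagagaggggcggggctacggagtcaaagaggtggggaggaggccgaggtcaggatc
Atic: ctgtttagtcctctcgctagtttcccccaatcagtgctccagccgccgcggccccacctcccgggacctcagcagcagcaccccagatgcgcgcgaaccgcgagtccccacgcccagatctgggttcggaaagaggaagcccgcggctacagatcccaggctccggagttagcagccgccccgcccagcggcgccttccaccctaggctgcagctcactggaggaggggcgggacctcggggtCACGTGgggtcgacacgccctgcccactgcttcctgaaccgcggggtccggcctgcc
Impdh2: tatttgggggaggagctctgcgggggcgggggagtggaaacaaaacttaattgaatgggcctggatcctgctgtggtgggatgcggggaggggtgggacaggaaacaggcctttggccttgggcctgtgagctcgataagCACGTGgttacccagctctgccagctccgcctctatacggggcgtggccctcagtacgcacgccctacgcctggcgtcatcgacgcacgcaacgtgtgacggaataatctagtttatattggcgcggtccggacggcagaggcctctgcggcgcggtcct
A match describes these letters only and not binding.

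Each of the 10 enzymes had a higher fitted level with NAM/PN than under vehicle, and none passed an adjusted p of 0.05 (edgeR's quasi-likelihood test, all 12060 genes). Their median log2 fold change was 0.34, a fold of 1.26, with a range from 0.11 to 0.77, against a median of -0.0022 over all tested genes. Summed over the 10 enzymes, the level was 1342 ± 115 CPM under vehicle and 1623 ± 99.3 CPM under NAM/PN (SD, n = 4). The vehicle pools 1 to 4 held 1503, 1312, 1232 and 1320 CPM, and the NAM/PN pools 1555, 1620, 1552 and 1764 CPM. Every NAM/PN library was above every vehicle library in this sum. Paics contributed the most counts to it.

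Of all tested genes, 1.28% were called in either direction, 0.282% as higher and 0.995% as lower, beside 0 of the 10 enzymes. DESeq2 also called 0 of the 10. At an unadjusted p under 0.05, 3 enzymes (Ppat, Adsl and Impdh1) were higher, where 3.96% of all genes were higher at that threshold. The groups did not overlap for 1 enzyme, Impdh1, where 2.79% of all genes had every NAM/PN library above every vehicle library. Since the enzymes were selected on this contrast, these counts carry no evidence about the list.

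Within pools, Ppat, Pfas, Adsl, Impdh1 and Adss were higher with NAM/PN in all 4 pools, and Gart, Paics, Atic and Gmps in 3 of 4. Impdh2 was higher in 2 of 4. Of all tested genes, 8.49% were higher in all 4 pools. The median log2 ratio of the enzymes was 0.083 in pool 1, 0.38 in pool 2, 0.33 in pool 3 and 0.40 in pool 4, against -0.010, -0.0022, 0 and -0.052 over all genes. Pool 1 was thus the pool of the smallest difference, with Paics, Atic and Impdh2 lower under NAM/PN. Pool 2 had Gart lower, pool 3 Impdh2 and pool 4 Gmps.

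**Figure D1:**
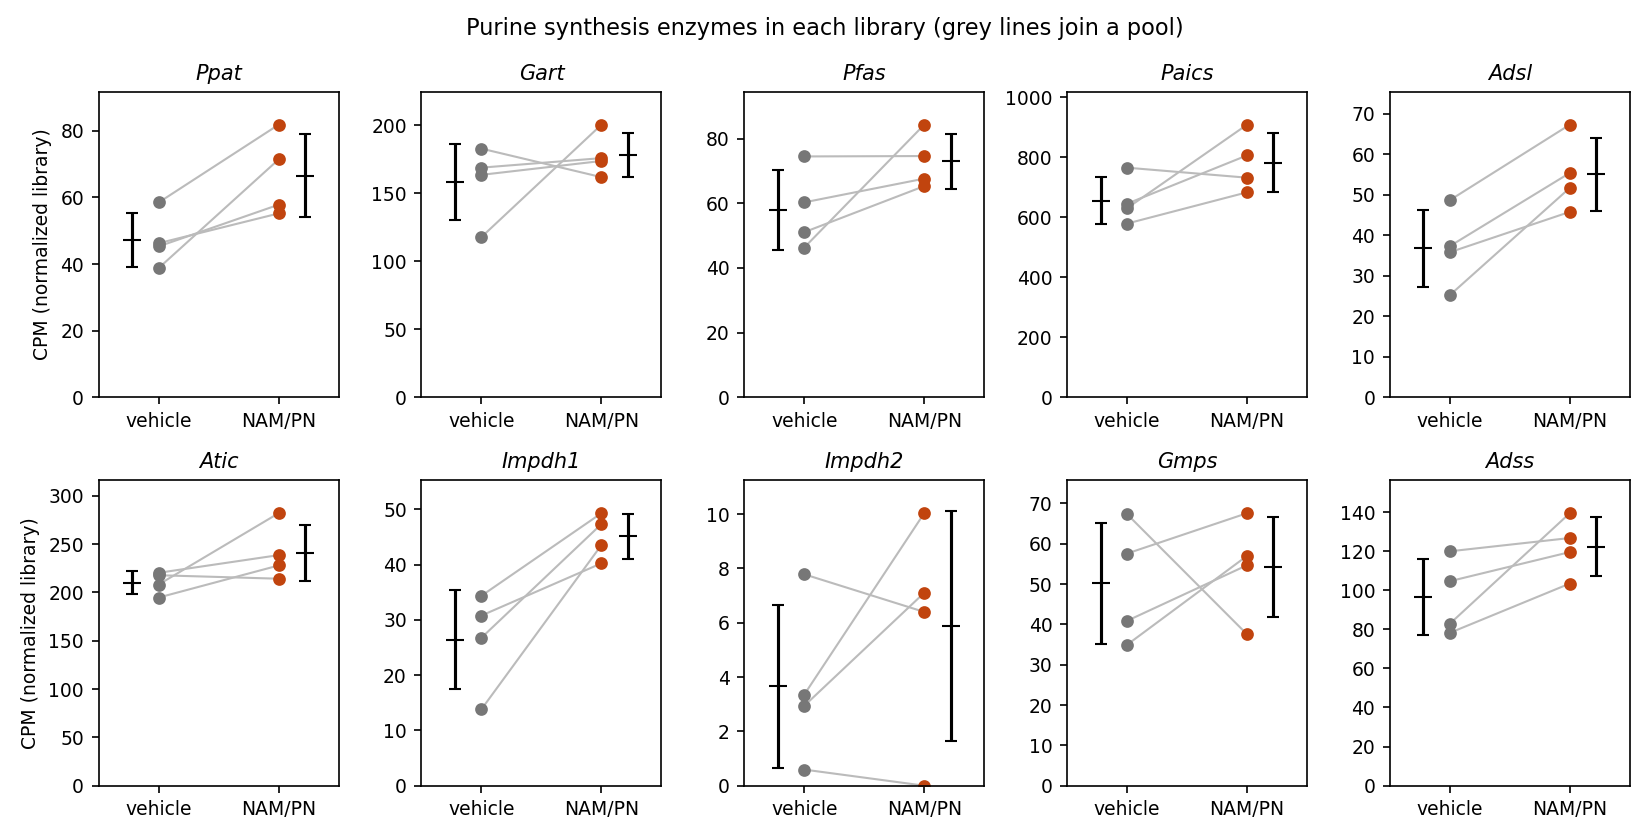
Level of each of the 10 enzymes in CPM (y axes start at 0 and differ by gene) in the 4 vehicle (grey) and 4 NAM/PN (orange) libraries, with lines joining the same pool and black bars giving mean ± SD. The orange points lie above all grey points for Impdh1 only, and the lines of Impdh2 run in both directions.

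Ppat, the amidotransferase that commits the ribose phosphate to purine synthesis, was measured at 58.5, 45.3, 38.8 and 46.2 CPM in vehicle pools 1 to 4 and at 81.9, 57.8, 71.4 and 55.2 CPM in the NAM/PN pools. The highest vehicle library, pool 1, exceeded the NAM/PN libraries of pools 2 and 4, so the groups overlapped. Its log2 fold change was 0.50 (SE 0.23), with means of 47.2 ± 8.23 and 66.6 ± 12.4 CPM (SD, n = 4). Its neighbour Paics, which adds carbon dioxide and aspartate to the growing ring, had a log2 fold change of 0.26 (SE 0.15). Paics read 764.9, 644.7, 578.6 and 629.7 CPM under vehicle and 731.6, 805.8, 682.8 and 908.2 CPM under NAM/PN. The vehicle library of pool 1 was above the NAM/PN libraries of pools 1 and 3.

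Gart, a protein that carries several steps of the route, had the smallest fold change of the 6 enzymes up to IMP. It read 163.6, 182.9, 117.8 and 168.9 CPM under vehicle and 173.8, 161.9, 200.5 and 175.9 CPM under NAM/PN. The low vehicle library of pool 3 was the main contrast, and the log2 fold change was 0.17 (SE 0.18). Pfas, the glutamine-dependent step that follows, averaged 58.0 ± 12.4 CPM under vehicle and 73.0 ± 8.54 CPM under NAM/PN, a log2 fold change of 0.33 (SE 0.22). In pool 1 its levels were close to equal, at 74.5 and 74.6 CPM.

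Adsl, the lyase that works both on the way to IMP and in the AMP branch, read 37.3, 25.2, 48.7 and 35.8 CPM under vehicle and 55.4, 51.7, 67.3 and 45.8 CPM under NAM/PN. Only the vehicle library of pool 3 reached into the NAM/PN range. The log2 fold change was 0.58 (SE 0.26). Atic, which closes the ring to IMP, averaged 210.2 ± 11.6 and 240.7 ± 29.3 CPM, a log2 fold change of 0.20 (SE 0.16), with NAM/PN libraries from 214.2 to 282.0 CPM.

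Impdh1, one of the isozymes that oxidize IMP toward GMP, had the highest fold change of the 10. Its levels were 30.8, 34.4, 13.8 and 26.8 CPM under vehicle and 40.2, 49.3, 43.5 and 47.4 CPM under NAM/PN. Every NAM/PN library was above the highest vehicle library, and the vehicle library of pool 3 was the lowest. The log2 fold change was 0.77 (SE 0.31). Gmps, which aminates the product to GMP, showed the smallest difference, with a log2 fold change of 0.11 (SE 0.27) and means of 50.2 ± 14.9 and 54.2 ± 12.4 CPM. In pool 4 it ran the other way, at 67.4 CPM under vehicle and 37.5 CPM under NAM/PN. Adss, the synthetase of the AMP branch, read 119.9, 78.2, 104.6 and 82.8 CPM under vehicle and 126.7, 103.4, 119.5 and 139.4 CPM under NAM/PN. It was higher in each pool although the groups overlapped, with a log2 fold change of 0.34 (SE 0.20).

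Impdh2, the isozyme known to rise with proliferation, had few counts. Vehicle pools 1 to 4 held 5, 27, 63 and 27 counts, and NAM/PN pools 0, 72, 42 and 76 counts. The spread within each condition exceeded the difference, and the fitted log2 fold change of 0.68 had an SE of 1.25 and a 95% interval from -1.95 to 3.31. With the pool as a replicate block its log2 fold change was 0.078.

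A processed pseudogene, Impdh2-ps (ENSMUSG00000071041, chr8:100030558-100032102, plus strand), held far more counts than Impdh2. Its 1545 annotated bases aligned to bases 249 to 1793 of the 1858-base Impdh2 transcript with 1541 identical bases (99.7%). Both aligned stretches read through 514 codons and differ in 1 amino acid. The 4 differing bases, counted from 1 at the 5′ end of the Impdh2 transcript with the Impdh2 base first, are C518T, T1130C, A1139G and C1383T. The aligned 410 bases after the last of these are identical, so a read that falls wholly within them cannot be told apart by sequence. The last difference is shown in capitals in its surrounding bases, since it is the one nearest the 3′ end that the kit reads.
Impdh2: ccaaagctttggctCttggggcttccaca
Impdh2-ps: ccaaagctttggctTttggggcttccaca

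Impdh2-ps held 380, 442, 342 and 580 counts in vehicle pools 1 to 4 and 750, 521, 611 and 1402 counts in the NAM/PN pools, 5028 in all against 312 for Impdh2. In CPM it averaged 51.3 ± 9.56 under vehicle and 97.2 ± 24.4 with NAM/PN (SD, n = 4). The groups did not overlap and each pool was higher with NAM/PN. Its log2 fold change was 0.92 (SE 0.23) with an adjusted p of 0.0575 (edgeR), between 0.00998 and 0.296 over the alternatives. With the counts of both added, a sum formed after the data were seen, the means were 55.0 ± 9.05 and 103.1 ± 24.3 CPM and the log2 fold change was 0.91 (SE 0.22, 95% interval 0.45 to 1.37). Whether the reads on Impdh2-ps came from Impdh2 transcripts was not tested. Impdh1 made up 85.8% ± 15.0 of the counts of Impdh1 and Impdh2 under vehicle and 89.3% ± 7.37 with NAM/PN. With Impdh2-ps included, it made up 32.0% ± 8.41 and 30.9% ± 4.87 of them (SD, n = 4).

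**Figure D2:**
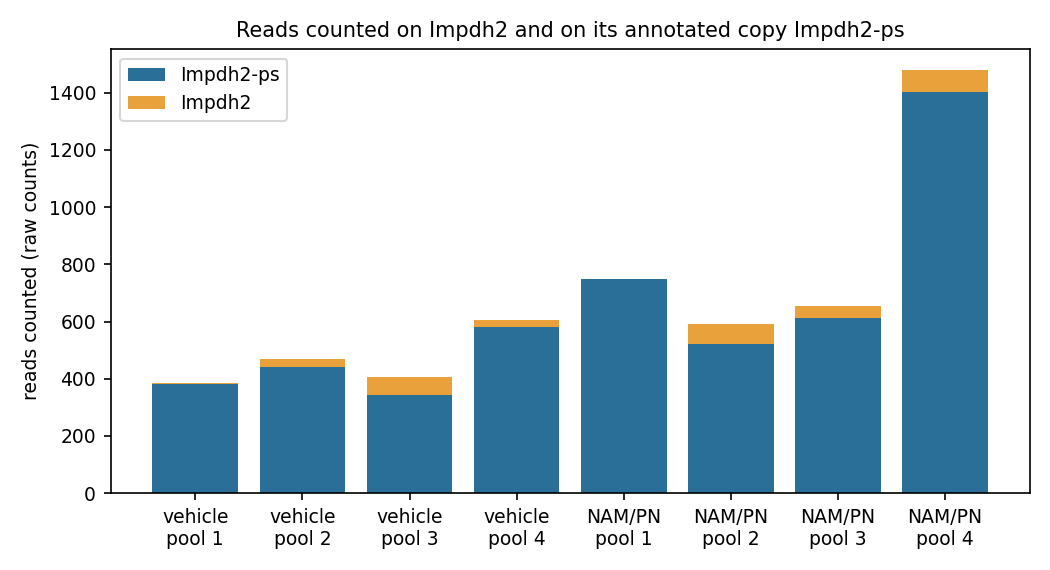
Raw counts on Impdh2-ps (blue) and Impdh2 (orange), stacked, in each of the 8 libraries. Blue makes up most of every bar, from 342 counts in vehicle pool 3 to 1402 in NAM/PN pool 4, and orange is at 0 in NAM/PN pool 1.

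Other genes also share bases with the enzymes. Impdh2 overlaps Ndufaf3 by 48 bases at its 3′ end on the opposite strand, and Ndufaf3 held 43 to 231 counts a library, 991 in all. A stretch of 55 bases of Adsl matched Eif3l (12496 counts in all) at 96.4% identity, and 51 bases matched Abcd4 (1941 counts) at 98.0%. For Atic, 51 bases matched Slc41a2 (764 counts) at 96.1% and 52 matched Acot1 (521 counts) at 96.2%. Further short matches of Adsl and Atic are not listed. Also, 121 bases of Paics matched its neighbour Ppat at 100%. The overlap of these neighbours, on opposite strands, lies 15931 bases from the 3′ end of Paics and 38058 from that of Ppat. Gm15964, antisense to Gart, had 0 counts, and Gm6612, a pseudogene within Adsl, had 27 counts in all.

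**Figure D3:**
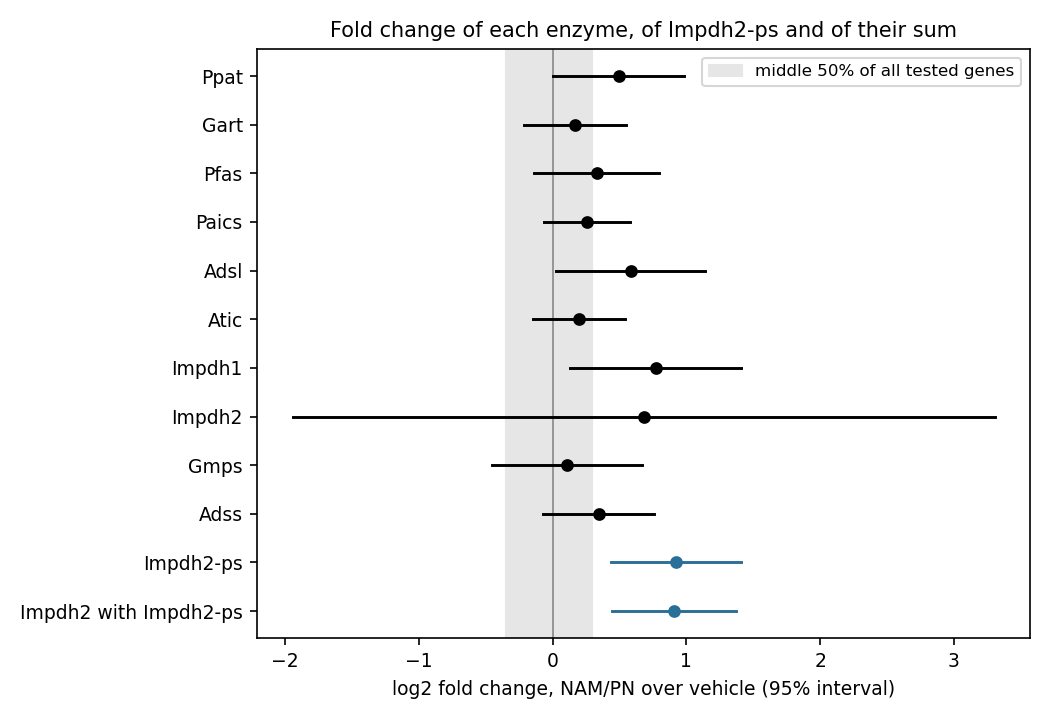
Log2 fold change (NAM/PN over vehicle, points) with 95% interval (lines) for the 10 enzymes in black and for Impdh2-ps and its sum with Impdh2 in blue. The grey band spans the middle 50% of all tested genes, from -0.35 to 0.29, and the black points lie between 0.11 and 0.77, with the widest interval for Impdh2.

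Genes that supply the substrate of Ppat included Tkt, the 1 gene of the 6 purine-linked lists called higher by edgeR at the settings used throughout. Of this list, edgeR's robust fit called 2 and its fit without the filter on low counts called 3, as did DESeq2 (Tkt, Taldo1 and Rpia). Over all genes, DESeq2 called 289, of which 75 were higher. Of 12 genes of the pentose phosphate pathway and phosphoribosyl pyrophosphate (PRPP) supply, all tested, 11 had a positive log2 fold change, 1 was called higher and 0 lower, with a median of 0.44. At an unadjusted p under 0.05 (edgeR), 5 were higher and 1 lower, where 3.96% of all genes were higher. Tkt, the transketolase that links ribose phosphate to glycolysis, rose from 35.4, 35.2, 46.1 and 40.8 CPM in vehicle pools 1 to 4 to 94.5, 77.9, 96.1 and 88.9 CPM in the NAM/PN pools. The groups were well apart, with a log2 fold change of 1.18 (SE 0.21, adjusted p 0.00516, edgeR). The call was lost without pool 1 (log2 fold change 1.10, adjusted p 0.0924), without pool 2 (1.19, adjusted p 0.0725) and without the 2 libraries high in Col1a1 (1.23, adjusted p 0.0564), with the fold change close to that of all libraries in each. Rpia, the isomerase that makes ribose phosphate, read 14.8, 12.4, 5.43 and 10.7 CPM under vehicle and 23.9, 20.6, 38.7 and 54.6 CPM under NAM/PN. Its groups did not overlap, at a log2 fold change of 1.67 and adjusted p 0.0579 (edgeR). Over the alternatives its adjusted p lay between 0.00915 and 0.381, under 0.05 with DESeq2 (0.0151), in edgeR's robust fit (0.0480), without the filter (0.00915), without the NAM/PN library of pool 2 (0.0489) and without the 2 libraries high in Col1a1 (0.0499). Of the synthetases that make PRPP itself, Prps1 had a log2 fold change of 0.19 (SE 0.18) and Prps2 of -0.78 (SE 0.31), neither past the threshold (adjusted p 0.871 and 0.363, edgeR).

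At the default filter and with all libraries, edgeR called 0 glutamine, folate or serine genes. Without the filter on low counts it called 2 folate and serine genes and 1 glutamine gene, and without the vehicle library of pool 1 it called 1 of each. Of 6 glutamine supply genes, all tested, 5 were positive and 0 were called, with a median log2 fold change of 0.50. Glul and Slc1a5, named after their values were seen, were among 3 that were higher at an unadjusted p under 0.05 (edgeR). Of all tested genes, 3.96% were higher at that threshold. DESeq2 called 1 of the glutamine genes, Slc1a5. Slc1a5, a glutamine carrier, averaged 60.9 ± 12.3 CPM under vehicle and 107.6 ± 18.0 CPM under NAM/PN, at an adjusted p of 0.0689 (edgeR), between 0.0220 (DESeq2) and 0.489 over the alternatives. Of 21 folate and serine genes, 18 were tested, 15 were positive and 0 were called, with a median of 0.30. At an unadjusted p under 0.05 (edgeR), 5 of them were higher, beside 3.96% of all genes. Shmt1, Shmt2, Phgdh and Psat1, named for that, were among the 5. DESeq2 called 1, Psat1. Phgdh, the first step of serine synthesis, had a log2 fold change of 0.85 (SE 0.36) and adjusted p 0.422. Among the folate enzymes, the log2 fold change was 0.02 for Mthfd1, 0.31 for Mthfd2 and 0.44 for Shmt2, and the adjusted p was 0.994, 0.688 and 0.480 (edgeR).

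The salvage route showed 0 called genes in either direction. Of 19 genes 17 were tested, 11 of them positive, and the median was 0.17 on the log2 scale. Gda had 0 counts. Hprt, Aprt and Adk, which recycle hypoxanthine, adenine and adenosine, had log2 fold changes of 0.18 (SE 0.23), 0.22 (SE 0.16) and 0.24 (SE 0.21). None of them passed the threshold, with edgeR at 0.929 for the adjusted p of Hprt and 0.859 for that of Adk. At an unadjusted p under 0.05 (edgeR), 3 of the salvage genes were higher (Nt5c3, Nt5c3b and Mtap, named for that), beside 3.96% of all genes. DESeq2 called 1, Mtap. The nucleotidase gene Nt5c3b had the largest difference among the better counted salvage genes, a log2 fold change of 0.75 (SE 0.31, adjusted p 0.416).

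Genes of AMP and GMP interconversion included a fall in a muscle isozyme. Of 16 genes 15 were tested, 6 positive and 9 negative, a median log2 fold change of -0.20, and 1 called, as lower. Ak1, the adenylate kinase abundant in muscle fibres, fell from 127.8, 115.8, 85.6 and 137.8 CPM under vehicle to 38.3, 47.5, 25.3 and 38.5 CPM under NAM/PN. Every NAM/PN library was below every vehicle library, at a log2 fold change of -1.64 (SE 0.24, adjusted p 0.000715, edgeR), and the call held in each alternative run. Ampd1, the muscle AMP deaminase, had 0 counts in all libraries. Adssl1, the muscle isozyme of Adss, read 3.08, 2.36, 5.31 and 6.64 CPM under vehicle and 0.123, 2.93, 4.57 and 0 CPM under NAM/PN. The groups overlapped, and Adssl1 made up 4.42% ± 2.24 of the counts of both isozymes under vehicle and 1.63% ± 1.87 with NAM/PN (SD, n = 4).

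Of 12 transcription factors known to act on purine synthesis genes, 11 were tested, 6 positive and 5 negative, a median log2 fold change of 0.06, and 1 called, as lower. Mycl, a MYC family member, fell from 49.0, 25.1, 28.2 and 40.5 CPM under vehicle to 7.39, 6.41, 11.7 and 2.52 CPM under NAM/PN. The groups did not overlap, at a log2 fold change of -2.36 (SE 0.45, adjusted p 0.00883, edgeR). The call was lost without the vehicle library of pool 1 (adjusted p 0.0588) or of pool 4 (0.0562), without pool 1 (0.142), pool 2 (0.0845) or pool 4 (0.0682), and without the 2 libraries high in Col1a1 (0.109). The log2 fold change in these fits stayed between -2.003 and -2.45. Myc had a log2 fold change of 0.08 (SE 0.32) and Atf4 of -0.11 (SE 0.16), and the adjusted p was 0.986 and 0.944 (edgeR).

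**Figure D4:**
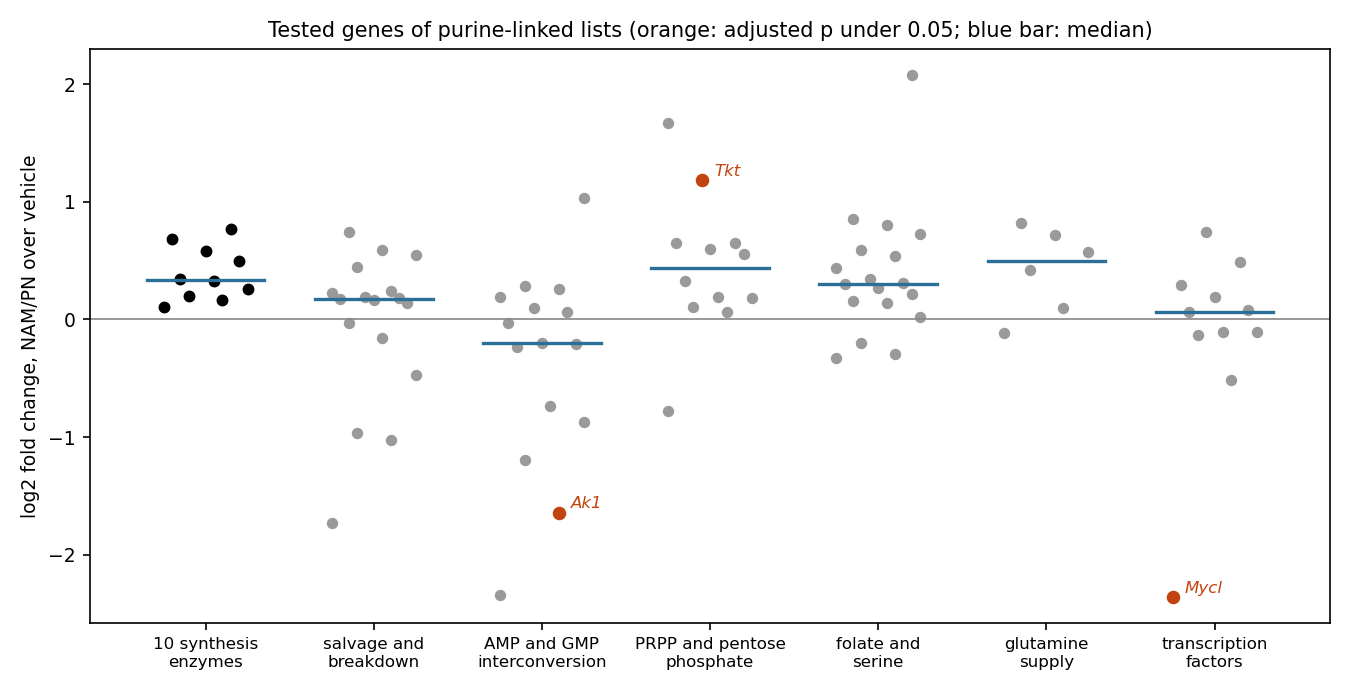
Log2 fold change (NAM/PN over vehicle) of each tested gene of the 10 enzymes (black) and of 6 purine-linked lists (grey, or orange where the adjusted p was under 0.05), with blue bars at the list medians. Tkt is the only orange point above 0, and Ak1 and Mycl lie at -1.64 and -2.36.

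Among the lists of cell state markers, edgeR made calls in the differentiation list and 0 in the proliferation and MuSC lists. Of 11 tested MuSC markers, 1 had a positive log2 fold change and 10 a negative one, and 2 were lower at an unadjusted p under 0.05 (edgeR). The 18 proliferation markers summed to 3373 to 4042 CPM under vehicle and 4291 to 4324 CPM under NAM/PN, so the groups did not overlap in this sum. Of the 18, 16 had a positive log2 fold change and 2 a negative one, with a median of 0.11. Of them 0 were called, and 2 were higher at an unadjusted p under 0.05 (edgeR), beside 3.96% of all genes. Mki67 (log2 fold change 0.04, adjusted p 0.988) and Pcna (0.40, adjusted p 0.743) did not pass the threshold. The 26 myogenic differentiation markers summed to 2527 to 4841 CPM under vehicle and 621.4 to 1473 CPM under NAM/PN. All 26 had a negative log2 fold change and 16 were called lower, beside 0.995% of all tested genes. Myog, the differentiation factor, fell by 2.22 on the log2 scale (adjusted p 0.000232), whereas Pax7 (-0.18, adjusted p 0.923) and Myod1 (-0.19, adjusted p 0.824) did not pass the threshold (edgeR). The fibro-adipogenic markers summed to 266.6 to 341.5 CPM under vehicle and 84.1 to 1157 CPM under NAM/PN, and the mural markers to 284.8 to 610.6 and 95.9 to 155.6 CPM. Of these lists, Col3a1, Gsn and Acta2, named after their values were seen, were called lower. Col1a1, also in the fibro-adipogenic list, ran the other way in NAM/PN pools 1 and 2 (486.1 and 1032 CPM). It made up most of the highest fibro-adipogenic sum. Acta2 averaged 367.9 CPM under vehicle and 70.45 CPM under NAM/PN, most of the mural sum. Pdgfra, Lum, Dpt and Myh11, of the same lists, had 0 counts. Summed endothelial, immune and glial markers reached at most 43.3 CPM in a library. The part of these markers in the levels of the enzymes, of Ak1 and of Mycl was not tested, and in bulk RNA fewer cells of a type and less RNA per cell cannot be told apart.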

How the data were processed

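RNA of 8 cultures was read with a QuantSeq 3′ FWD kit. The authors aligned reads to GRCm38 with STAR, assigned them to genes with htseq-count (HTSeq 2.16.2 in the submitters' processing notes) and deposited raw counts with no filter. How reads with several matches were counted is not given in the sources used here.

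In R 4.3.3, genes were filtered with filterByExpr (minimum count 10, minimum total 15), TMM-normalized and compared with edgeR 4.0.16 (quasi-likelihood, Benjamini-Hochberg over 12060 genes, threshold 0.05), without a block, on all 8 libraries. DESeq2 1.42.0, other filters, the replicate block and left-out libraries were alternatives. The code was tested on simulated counts. Same-numbered libraries come from the same pool of mice, which pairs the conditions; within pools, deviations from the group means correlated at -0.0332 to 0.0313. Libraries of a condition differed by more than sampling noise, with a chi-square statistic of at least 22.8 times its degrees of freedom.

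The enzymes and lists were chosen with earlier results of these data known. Named were the 10 enzymes, called genes of 6 purine-linked lists, the largest fold change of each list at an average log2 CPM of at least 3, a fixed set (Hprt, Aprt, Adk, Prps1, Prps2, Adssl1, Ampd1, Mthfd1, Mthfd2, Shmt2, Myc, Atf4, Pax7, Myod1, Mki67, Myog, Pcna), markers at 0, counted pseudogenes of the enzymes and the most counted gene. Col1a1 was named after its values were seen. A few list genes are not reported here by name. Symbols and positions came from GENCODE M21, with 55141 identifiers matched. Transcript ends (500 bases) were aligned with BLAST 2.17.0 at 95% identity over at least 50 bases, and promoters came from RefSeq.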

Additional observations from a re-analysis of the deposited data

How the results depend on the processing

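The median log2 fold change of the 10 enzymes lay between 0.25 and 0.45 over the alternatives, with both ends from fits that left out a library or a pool, and 215 of 220 alternative values of single enzymes were positive. The 5 negative values were of Gart and Gmps when libraries were left out. The number of enzymes called was 0 except 1 when the counts of Impdh2-ps were added to Impdh2, an alternative chosen after seeing the data. With the pool as a replicate block, 156 genes were called in place of 154, the median of the enzymes was 0.30, 0 enzymes and 3 genes of the purine-linked lists were called, the same 3 as without the block (Tkt, Ak1 and Mycl). The fit with the block covered all tested genes, but its calls of Col3a1, Gsn, Acta2 and of differentiation markers other than Myog were not listed singly.

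The count of called genes, 154, was 289 with DESeq2, 366 without a filter on low counts, 244 at an adjusted p under 0.10, 76 without the 2 NAM/PN libraries high in Col1a1 (chosen after seeing the data) and 42 to 177 with a library or pool left out. The count in the purine-linked lists, 3, was 8 with DESeq2, 8 without the filter, 6 at an adjusted p under 0.10 and 1 to 4 with a library or pool left out. The cause was not tested. Leaving out both Col1a1-rich libraries gave a median of 0.36 for the enzymes and 2 called list genes. At 4 pools, log2 differences of the size seen for these enzymes lay within about 2 standard errors for most of them, and Impdh2 had at most 76 counts in a library.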
